A study of Mus musculus with 39 samples.

Results

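The step from the 2-cell to the 4-cell stage was examined in untreated mouse embryos by comparing the 3 4cell_control arrays with the 3 2cell_control arrays, which are 6 of the 39 arrays in the series. The arrays were chosen by their stage and treatment labels alone, and no measured value entered the choice. The series followed mouse oocytes and embryos with or without the histone deacetylase (HDAC) inhibitors MGCD0103 and T247 on 1-colour Agilent arrays. Each array held amplified RNA from a pool of 100 embryos of the cross B6D2F1 x ICR, made by in vitro fertilization of superovulated B6D2F1 females of 8 to 9 weeks with sperm of ICR males of 15 to 20 weeks. The 2-cell embryos were collected 24 h after insemination and the 4-cell embryos 48 h after it, and neither group had met an inhibitor. The labels do not say whether the 3 pools of a stage came from separate matings or collection days, so the p-values measure the spread between these pools.

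The fertilized mouse egg starts with messenger RNA made by the growing oocyte. This maternal RNA is removed over the first divisions, while the embryo switches on its own genes in a minor wave in the zygote and a major wave at the 2-cell stage, known as zygotic gene activation (ZGA). A set of genes tied to the endogenous retrovirus MERVL, among them the Zscan4 family, is transcribed for a short time at the 2-cell stage, and ribosome, proteasome and mitochondrial genes are well-known members of the later embryonic programme.

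The genes of the machinery that makes and turns over protein moved one way. All 79 cytosolic ribosomal protein genes were upregulated from the 2-cell to the 4-cell stage, as were 30 of 32 proteasome subunit genes and 47 of 51 ribosome biogenesis genes, and no member of these lists was downregulated. In the other direction, 43 of 49 oocyte and maternal-effect genes and 18 of 27 genes known for transient 2-cell expression were downregulated. Across all genes, 14644 could be tested, 9454 (64.6%) were differentially expressed genes (DEGs), 5021 (34.3%) were upregulated and 4433 (30.3%) were downregulated. A DEG had a log2 fold change (LFC, the mean of the 4-cell arrays minus that of the 2-cell arrays) of at least 1 in size and a Benjamini-Hochberg adjusted p below 0.05 in limma, a linear model with moderated variances. Because most genes passed, each list below is to be read against those shares.

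Levels are log2 spot signals minus the 75th percentile of the same array, so a level of 0 is that percentile, a level describes 1 probe, and a change in the total RNA of an embryo cannot be seen. On this scale the median LFC of all genes was 0.219. It was -0.224 after smooth quantile normalization, the method of the study, which moved the share of DEGs that were upregulated from 53.1% to 42.8%. LFCs as small as these shifts thus have no settled sign. Some larger LFCs also changed sign in another setting, as for Hdac1 (1.18, lowest -0.32) and Kdm5b (1.30, lowest -0.15). The 4 classes of detection were as follows. Of the genes tested, 11462 were well above background on all 6 arrays, 1290 on the 2-cell arrays only and 320 on the 4-cell arrays only. The other 1572 were so on all arrays of 1 stage. For these a probe of the gene, not always the one used, was so on at least 1 array of the other stage. The stages did not overlap in 11629 genes (79.4%), and 9427 of the 9454 DEGs were among them. In the first class, 343 DEGs had an LFC of at least 4 and 272 an LFC of -4 or below.

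2-cell replicate 1 stood apart from its group. It correlated with the other 2-cell arrays at 0.916 and 0.93 over the 14644 genes, against 0.994 between replicates 2 and 3 and 0.989 to 0.99 among the 4-cell arrays. Its level was at least 1 higher than the mean of replicates 2 and 3 for 2552 genes and at least 1 lower for 2345, whereas replicates 2 and 3 differed by that much for 156. Its median level over the 49 oocyte and maternal-effect genes was 5.18, against 3.66 and 3.98 on replicates 2 and 3. Along the line from the mean 1-cell to the mean 4-cell profile (0 at the 1-cell and 1 at the 4-cell mean), replicate 1 lay at 0.331 and replicates 2 and 3 at 0.528 and 0.502. Replicate 1 of every stage was on slide 1, and slide 1 was scanned on another day than slides 2 and 3, which hold replicates 2 and 3. The part of the slide in this spread was not tested. Without it 5228 genes were upregulated and 4469 downregulated. Of the main calls, 4807 upregulated and 4173 downregulated genes were kept, and none was reversed.

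**Figure D1:**
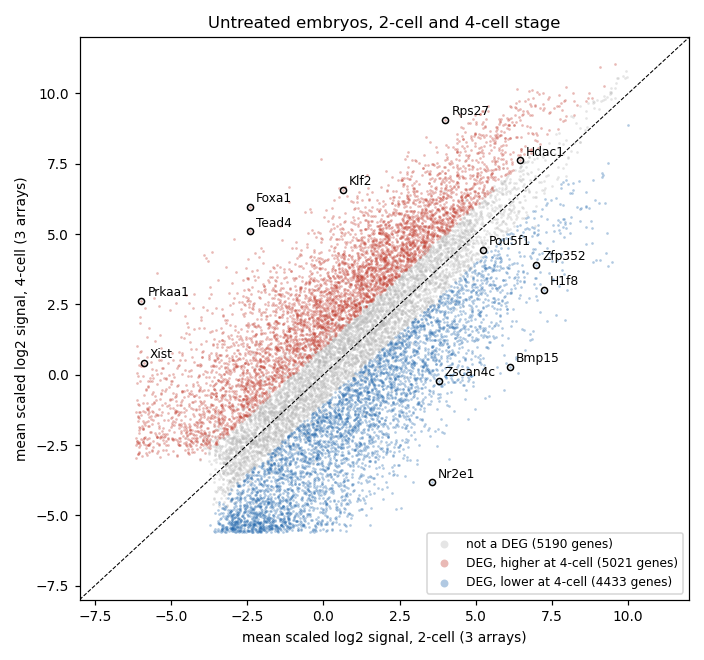
Mean scaled log2 signal of each of 14644 genes in 2-cell embryos (x axis) and in 4-cell embryos (y axis), 3 arrays each, with equal levels on the dashed line. The 5021 upregulated genes lie above the line and the 4433 downregulated genes below it, Foxa1 and Tead4 stand far above, and Bmp15 and Nr2e1 far below.

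Among genes well above background on all 6 arrays, Foxa1 had the largest rise. Foxa1 encodes a pioneer transcription factor best known from endoderm. Its level was -2.71, -2.07 and -2.47 on the 2-cell arrays and 6.08, 5.72 and 6.10 on the 4-cell arrays, an LFC of 8.38 ± 0.24 (SE of the limma fit, as in all values below; adjusted p = 1.85e-05). The groups were far apart, and on the 8-cell arrays its mean level was 5.43 before it came to 1.70 in the morula and -2.69 in the blastocyst. Tead4, a transcription factor needed for trophectoderm, had levels of -2.64, -2.00 and -2.61 at the 2-cell stage and 5.09, 5.12 and 5.11 at the 4-cell stage. Its LFC was 7.52 ± 0.23 (limma adjusted p = 1.85e-05), and its mean stayed between 3.56 and 5.39 from the 8-cell stage to the blastocyst.

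The other genes among the 12 largest rises served many functions. The potassium channel gene Kcnk6 had an LFC of 7.80, and Bhmt, a methyltransferase that makes methionine from homocysteine, one of 7.77, although its 3 other probes gave 0.49 to 8.01. Ola1, an Obg-like ATPase, had 7.25, and Cish, an inhibitor of cytokine signalling, 7.01. The glucosidase gene Mogs, which trims new N-glycans, had 6.72, the nucleotidase gene Nt5c 6.58, and Znrd2 6.56. Spr, a reductase of tetrahydrobiopterin synthesis, had 6.36. The elongation factor Tufm (6.39) and the ribosomal protein Mrpl33 (6.34) act in mitochondrial translation. All 12 were chosen among genes whose stages did not overlap, which was the case for 79.4% of all genes tested.

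Among the 12 largest falls, AA545190 led with levels of 7.09, 5.28 and 5.41 at the 2-cell stage and -0.50, -0.56 and -0.58 at the 4-cell stage (LFC -6.47 ± 0.49, limma adjusted p = 6.46e-05). AU015836 (-6.33), Gm13391 (-6.30), the olfactory receptor gene Olfr288 (-6.28) and Pdzph1 (-6.02) followed the same pattern. The Tcl1-family genes Tcl1b5 and Tcl1b2 had LFCs of -6.18 and -6.0, but the family is a cluster of like sequences and signal may be shared. Gng3, a G protein gamma subunit, had -6.22, the actin-binding calponin Cnn1 -6.11 and the galactosyltransferase B4galt4 -5.91. Bmp15, a growth factor secreted by the oocyte, and Wee2, the oocyte kinase that restrains CDK1, had -5.82 each. 2-cell replicate 1 was the highest 2-cell array for 11 of these 12 genes, the exception being Olfr288.

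Some genes were measured at 1 stage only, so that only a lower bound of the fold is known. The bound sets the mean of the bright stage against the higher, on each array of the dim stage, of the dimmest signal called well above background and the probe's own signal. It was computed in the main setting only, as were the bounds given for other genes below. At the 4-cell stage only were Sycn, a zymogen granule protein (at least 280-fold higher), the pantetheinase Vnn1 (203), the kinase Cdk18 (108), Prkaa1, a catalytic subunit of AMP-activated kinase (102), Phlda3 (97.1), the allantoicase Allc (89.2), the mitochondrial import receptor Tomm70a (85.2) and Dynap (79.0). Prkaa1 was at -5.80, -5.98 and -6.14 on the 2-cell arrays, none well above background, and at 2.57, 2.57 and 2.76 on the 4-cell arrays. The LFC of Tomm70a came to 0.79 at the least over the alternatives, and its call was lost in 1 of 17 other settings. At the 2-cell stage only were the orphan nuclear receptor Nr2e1 (at least 118-fold higher than at the 4-cell stage), Lurap1l (66.7), the prolactin family member Prl8a2 (60.6), Prr32 (52.4), the epidermal growth factor receptor Egfr (49.5), Efcab6 (48.2), D16Ertd519e (48.1) and Fam229b (45.0). Nr2e1 gave 3.61, 3.50 and 3.56 at the 2-cell stage. Over the alternatives LFCs came to 5.72 for Sycn, 5.43 for Vnn1, 4.62 for Prkaa1 and -4.87 for Nr2e1 at the least. On the log2 scale these are smaller in size than the bounds. All 16 were DEGs (limma adjusted p between 1.85e-05 and 0.000189), but such genes passed the filter only through their bright stage. Of the 320 genes seen at the 4-cell stage only, 320 were upregulated. Of the 1290 seen at the 2-cell stage only, 1206 were downregulated. The calls of the 16 thus add no support.

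**Figure D2:**
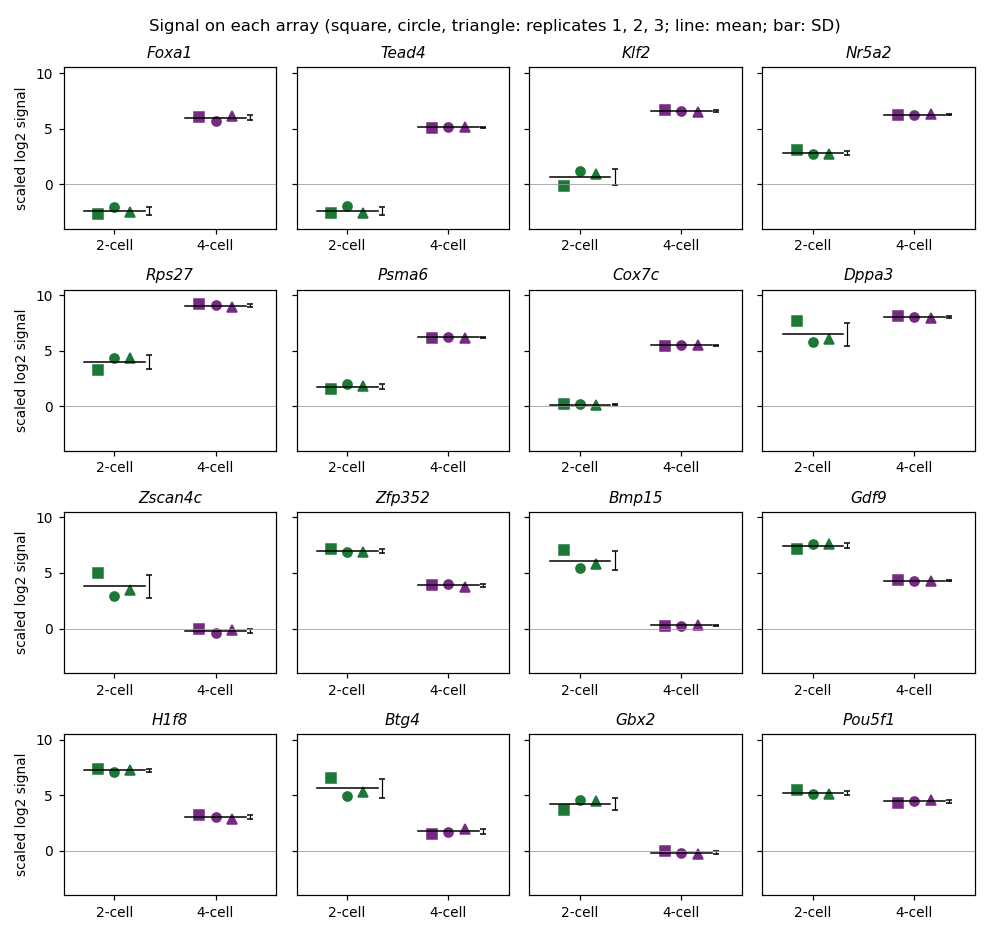
Scaled log2 signal (y axis) of 16 genes on each of the 6 arrays, 2-cell in green and 4-cell in purple, with a symbol for each replicate, the mean as a line and the SD as a bar beside it. The stages do not overlap for any of the 16, the gap is small for Dppa3 and Pou5f1, and 2-cell replicate 1 is the highest 2-cell array for Bmp15, Btg4, Zscan4c and Dppa3 among others.

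The protein synthesis genes moved as a block. The 79 ribosomal protein genes had LFCs from 1.31 (Rplp0) to 5.06 (Rps27), with a median of 3.27. Rps27 went from 3.28, 4.37 and 4.37 to 9.18, 9.11 and 8.92 (LFC 5.06 ± 0.34, limma adjusted p = 4.31e-05), Rps18 had an LFC of 4.57 and Rpl5 of 4.34. Their median level, averaged over the arrays of a stage, was 3.59 in 1-cell, 5.42 in 2-cell and 8.96 in 4-cell embryos. In the ribosome biogenesis list the median LFC was 2.69 and Wdr12 (4.62) and Ddx21 (4.19), both factors of ribosomal RNA processing, and Noc2l (4.00) led. The members not called were Noc3l (LFC -0.09), Taf1d (0.47), Dkc1 (0.77) and Ubtf (0.98). Under the other settings tried, 76 to 79 ribosomal protein genes and 35 to 48 ribosome biogenesis genes were upregulated and none was downregulated, the lowest counts both with quantile normalization.

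Proteasome subunits, which form the particle that degrades ubiquitin-tagged protein, had a median LFC of 3.13. Psmd13 of the regulatory cap went from -1.29, 1.06 and 0.87 to 4.94, 4.76 and 4.73 (LFC 4.60 ± 0.62, limma adjusted p = 0.000714). 2-cell replicate 1 was the lowest array for it. The cap ATPase Psmc2 had an LFC of 4.47 and the core subunit Psma6 4.45, and only Psmb3 (0.71) and Psmd2 (0.77) were not called. All 32 were upregulated when 2-cell replicate 1 was left out. Unlike the ribosomal protein genes, the proteasome genes had a higher median level at the 1-cell stage (4.12) than at the 2-cell stage (3.06) and reached 5.97 at the 4-cell stage. Chaperones behaved less uniformly, with 20 of 31 upregulated and 5 downregulated (median LFC 1.97). Cct4 (4.35) and Cct2 (3.30), subunits of the cytosolic chaperonin, and Hspa4 (3.75, its 2 other probes 0.91 and 1.97) were upregulated, while the heat-inducible Hspa1a (-2.29) and Hspb1 (-2.03) and the cyclophilin Ppib (-1.66) were downregulated.

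Of 74 nuclear-encoded respiratory chain and ATP synthase genes tested, 60 were upregulated and none was downregulated (median LFC 2.15). Cox7c, a subunit of cytochrome oxidase, had levels of 0.20, 0.18 and 0.08 and then 5.42, 5.50 and 5.51 (LFC 5.32 ± 0.16, limma adjusted p = 1.85e-05). The complex I subunits Ndufb7 (5.10) and Ndufa12 (4.82) were close to it, and 14 genes, among them Sdhc (-0.84) and Cox7b (-0.78), were not called. Up to 3 members were downregulated in the other settings. The spliceosome list had 38 of 54 genes upregulated (median LFC 1.62), led by Lsm5 (4.63), Snrpa1 (4.38) and Snrpb (4.35). Sf3b1, a component of the U2 particle, was the 1 member downregulated, from 2.33, -0.19 and 0.07 to -2.15, -2.51 and -2.33 (LFC -3.06). With quantile normalization the splicing count was 22.

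**Figure D3:**
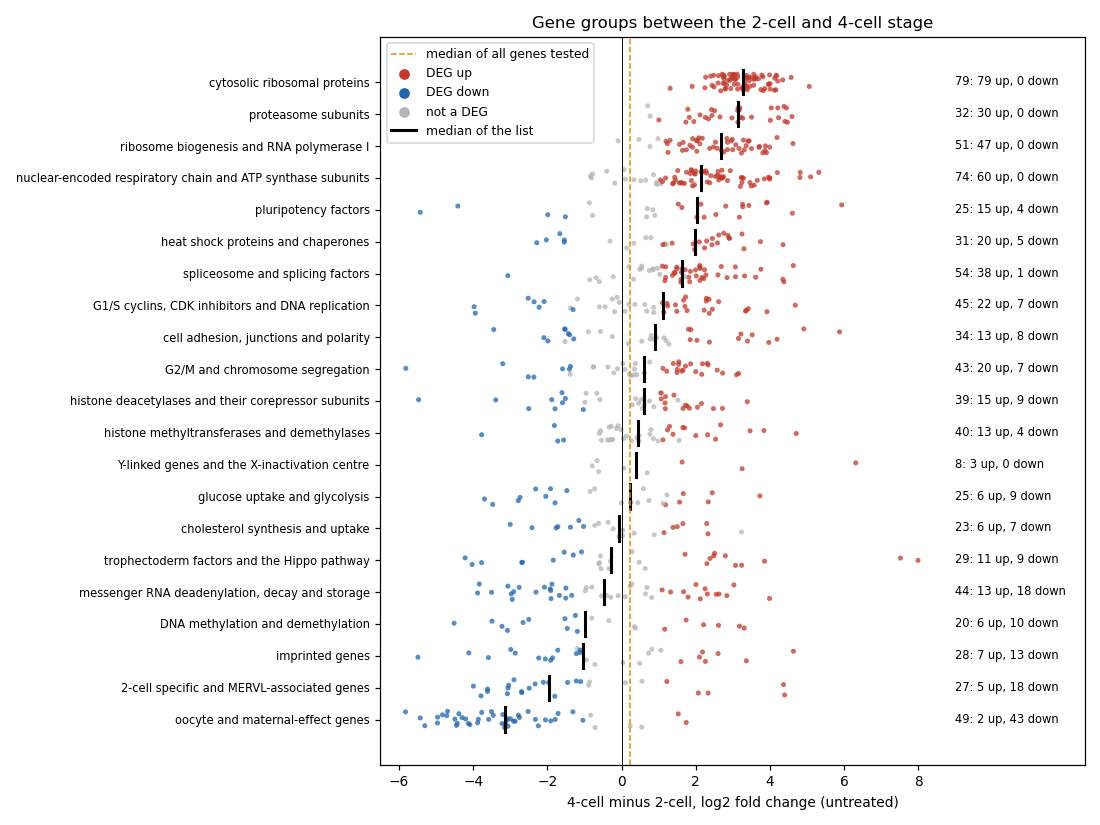
LFC of every tested member (points) of 21 gene lists (rows, ordered by median), with upregulated genes in red, downregulated genes in blue and other genes in grey. Black bars are list medians, the dashed line is the median of all genes (0.219), and the numbers at the right give the genes tested and called. Ribosomal proteins, at the top, lie wholly to the right of 1, and oocyte and maternal-effect genes, at the bottom, lie mostly to the left of -1.

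Of 25 glucose uptake and glycolysis genes tested, 6 (24.0%) were upregulated and 9 (36.0%) downregulated, against 34.3% and 30.3% of all genes, and their median LFC of 0.24 was close to the 0.219 of all genes. Pdha1, a subunit of pyruvate dehydrogenase, had an LFC of 3.73, hexokinase Hk1 one of 2.45 and the mitochondrial pyruvate carrier Mpc2 one of 2.34. The glucose transporter Slc2a1 went from 3.21, 2.43 and 2.70 to -0.67, -0.96 and -1.12 (LFC -3.69 ± 0.26, limma adjusted p = 5.31e-05) and was at 3.94 and 4.35 on average in the morula and blastocyst. The lactate dehydrogenase subunit Ldhb (-3.47) and the glycolytic isomerase Tpi1 (-2.79) were also downregulated. In cholesterol synthesis and uptake 6 of 23 genes (26.1%) were upregulated and 7 (30.4%) downregulated, against 34.3% and 30.3% of all genes. Upregulated were Lss (2.30), Pmvk (1.66, a call lost in 8 of 19 other settings) and Srebf1 (above background at the 4-cell stage only, at least 2.88-fold higher). Downregulated were Insig1 (-3.00), Sc5d (-1.76) and Nsdhl (-2.41, well above background on all 2-cell and some 4-cell arrays).

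The maternal list had a median LFC of -3.15. Bmp15 had levels of 7.06, 5.43 and 5.84 at the 2-cell stage and 0.26, 0.26 and 0.34 at the 4-cell stage. Gdf9, its partner growth factor, went from 7.18, 7.58 and 7.63 to 4.36, 4.29 and 4.28 (LFC -3.15 ± 0.19, limma adjusted p = 3.53e-05). The deubiquitinase Uchl1 (-5.43) and the BCL2-family member Bcl2l10 (-5.30) fell most after Bmp15. The oocyte linker histone H1f8 had an LFC of -4.21, the nuclear chaperone Npm2 -2.99, and Nlrp5 of the subcortical maternal complex -2.05. The median level of the list was 6.50 in 1-cell, 4.27 in 2-cell, 1.48 in 4-cell and 0.217 in 8-cell embryos.

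The maternal list held exceptions. Khdc3, another member of the subcortical maternal complex, was upregulated from 2.55, 2.22 and 2.25 to 4.22, 4.19 and 3.84 (LFC 1.74 ± 0.20, limma adjusted p = 0.000362). Dppa3, which protects the maternal genome from demethylation, had levels of 7.65, 5.75 and 6.04 and then 8.10, 8.02 and 7.92 (LFC 1.53 ± 0.50, limma adjusted p = 0.0297), a call lost in 8 of 19 other settings. Zp3, a zona pellucida protein, was not called (0.23), although Zp1 (-2.32) and Zp2 (-2.78) were downregulated. Gtsf1 (-0.83), Padi6 (-0.71) and Sohlh1 (0.54) were not called either. Without 2-cell replicate 1 the list gave 42 downregulated and 2 upregulated genes.

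Among the genes of transient 2-cell expression the median LFC was -1.97. Zscan4c, of a family of zinc finger genes that act on telomeres, had levels of 4.96, 2.96 and 3.44 at the 2-cell stage and -0.07, -0.37 and -0.18 at the 4-cell stage (LFC -3.99 ± 0.51, limma adjusted p = 0.000552). Zscan4f had an LFC of -3.79 and Zscan4a of -3.61. The family members are near-identical, so that probes may share signal and their values are not independent. Zfp352 gave 7.14, 6.90 and 6.88, then 3.95, 4.00 and 3.75 (LFC -3.08 ± 0.18). Tcstv3 had an LFC of -2.70, and Usp17la, a deubiquitinase of another tandem family, -3.61 on its main probe and -0.27 on its other probe. Their fall was partial. Zfp352 remained higher on average at the 4-cell stage (3.90) than at the 1-cell stage (0.57), and the same held for Zscan4f (3.62 against 0.22). Zscan4d and Duxf3, also in the list, did not pass the detection filter and were not tested.

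Other members of the list were upregulated. Pramel7 had levels of 2.18, 2.83 and 2.76 and then 7.05, 7.16 and 6.76 (LFC 4.40 ± 0.25), and its probe was not well above background on any GV, MII or 1-cell array. Dppa2, a regulator of ZGA genes, had an LFC of 4.37, but it was well above background at every untreated stage, with means of 4.11 in GV oocytes, 3.01 in 1-cell and 2.55 in 2-cell embryos. Pramel6 had an LFC of 2.34 and, like Pramel7, was not above background before the 2-cell stage. Sp110 (1.22) and Fgf1 (2.07) were also upregulated.

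**Figure D4:**
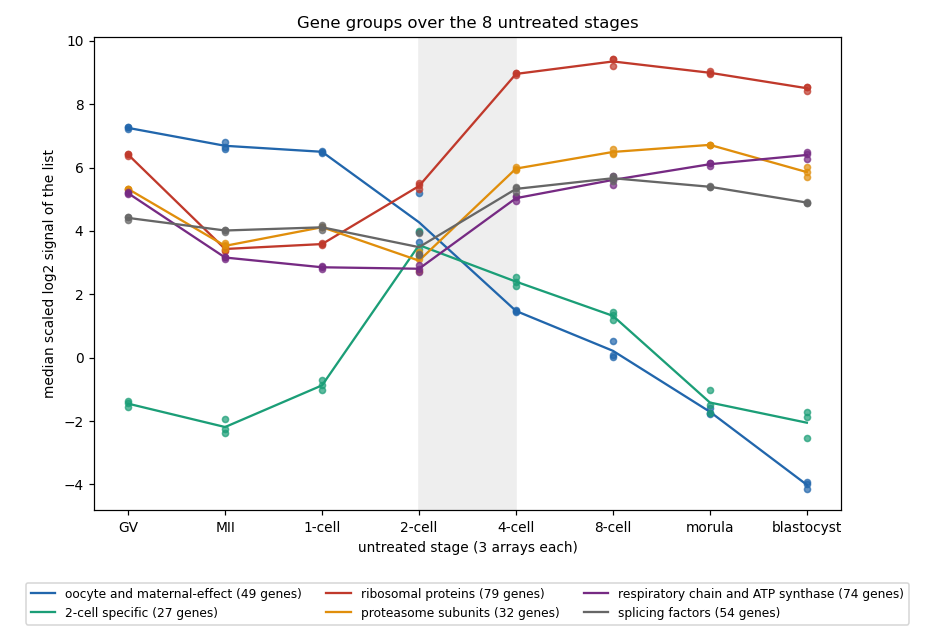
Median scaled log2 signal (y axis) of 6 gene lists on the 24 untreated arrays, by stage (x axis, 3 arrays each), with a point per array and a line through the stage means. Across the shaded step the ribosomal protein median goes from 5.42 to 8.96 and the maternal median from 4.27 to 1.48, and the 2-cell specific genes have their highest median at the 2-cell stage.

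The 8-cell and 1-cell arrays took no part in the comparison and show where these genes lay before and after. Of the upregulated genes, 4632 (92.3%) had a higher mean at the 8-cell than at the 1-cell stage, with a median difference of 2.86. Of the downregulated genes, 4033 (91.0%) had a lower one, with a median of -3.46. Among all genes tested 52.8% were higher and 47.2% lower, with a median of 0.207.

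The promoter windows of these genes differed in sequence. RefSeq windows of 300 bases (build GRCm38.p6, 250 bases before to 50 after the start site, the first listed for each gene) were found for 11537 of the 14644 genes and searched on both strands for the letters of known promoter elements. These were TATAAA for the TATA element, the pentamer CCAAT bound by NF-Y, the hexamer GGGCGG bound by SP1, the heptamer CCGGAAG of the ETS type and the hexamer CACGTG of the E-box type. Matches of different motifs may overlap. CCGGAAG was in 23.3% of 3943 upregulated genes' windows, 10.1% of 3515 downregulated genes' windows, 16.5% of all windows tested and 9.12% of the 27025 windows in the table. It was in 39.7% of the 58 ribosomal protein windows found and in 38.5% of the 26 proteasome windows. TATAAA was in 7.38%, 9.53% and 8.5% of upregulated, downregulated and all tested windows, and in 29.4% of the 17 windows of the 2-cell list, of which 70.6% held CCAAT against 39.0% of all tested. Several of those 17 belong to tandem gene families and are not independent. GGGCGG was in 22.0% of 41 maternal windows and in 58.6% of all tested, and CACGTG in 12.3% of upregulated and 7.51% of downregulated windows. Base composition differed too, with a mean share of G and C of 51% in maternal and 47.4% in 2-cell list windows, against 59.6% in all tested. Its part in the motif shares was not tested. These shares are a description, and matches are letters and not shown sites.

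Windows of 5 genes are given to show both ends of the comparison, 5′ to 3′ on the gene's strand, with the searched motifs (on either strand) in capitals. Rps18 and Psmd13 were chosen among upregulated genes of their lists whose window holds CCGGAAG. The motif was thus a condition of the choice, and only 39.7% of ribosomal protein and 38.5% of proteasome windows hold it. In Psmd13 it starts 6 bases before the start site. Zscan4c, Bmp15 and H1f8 were downregulated, and no motif entered their choice. Zscan4c holds TATAAA 54 bases and CCAAT 42 bases before the start site.
Rps18, chr17:33955616-33955915, minus strand: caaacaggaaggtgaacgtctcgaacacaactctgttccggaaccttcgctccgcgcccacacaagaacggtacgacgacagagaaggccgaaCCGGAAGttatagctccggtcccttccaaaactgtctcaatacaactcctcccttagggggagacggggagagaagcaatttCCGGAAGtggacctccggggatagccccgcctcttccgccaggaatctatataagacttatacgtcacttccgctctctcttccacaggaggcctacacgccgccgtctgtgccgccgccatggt
Psmd13, chr7:140882144-140882443, plus strand: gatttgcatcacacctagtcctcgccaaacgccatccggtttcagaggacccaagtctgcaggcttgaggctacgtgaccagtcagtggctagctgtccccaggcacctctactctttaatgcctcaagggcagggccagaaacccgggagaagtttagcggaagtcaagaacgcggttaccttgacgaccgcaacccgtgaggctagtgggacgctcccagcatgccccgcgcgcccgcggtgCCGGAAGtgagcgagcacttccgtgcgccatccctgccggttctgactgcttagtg
Zscan4c, chr7:11005495-11005794, plus strand: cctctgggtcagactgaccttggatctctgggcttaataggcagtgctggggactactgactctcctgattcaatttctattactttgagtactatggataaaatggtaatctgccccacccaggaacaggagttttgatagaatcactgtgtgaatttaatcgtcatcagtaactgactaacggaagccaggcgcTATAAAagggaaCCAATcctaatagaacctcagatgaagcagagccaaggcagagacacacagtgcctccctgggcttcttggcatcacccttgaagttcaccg
Bmp15, chrX:6320675-6320974, minus strand: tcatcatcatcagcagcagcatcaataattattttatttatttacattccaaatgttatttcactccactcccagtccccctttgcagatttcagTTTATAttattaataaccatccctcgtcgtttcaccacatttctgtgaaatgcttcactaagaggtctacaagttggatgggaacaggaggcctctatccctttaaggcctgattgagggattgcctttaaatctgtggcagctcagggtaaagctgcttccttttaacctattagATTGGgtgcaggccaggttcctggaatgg
H1f8, chr6:115944681-115944980, plus strand: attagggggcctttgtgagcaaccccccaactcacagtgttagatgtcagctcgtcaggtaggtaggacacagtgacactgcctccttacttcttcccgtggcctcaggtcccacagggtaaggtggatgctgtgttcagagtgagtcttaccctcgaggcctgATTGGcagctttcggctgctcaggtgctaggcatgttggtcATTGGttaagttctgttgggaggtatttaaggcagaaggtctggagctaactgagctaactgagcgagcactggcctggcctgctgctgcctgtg

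In the pluripotency list 15 of 25 genes were upregulated and 4 downregulated (median LFC 2.03). The Krüppel-like factor Klf2 went from -0.15, 1.20 and 0.89 to 6.64, 6.57 and 6.53 (LFC 5.94 ± 0.36, limma adjusted p = 3.44e-05). Dppa5a (3.93), Esrrb (3.91) and the nuclear receptor Nr5a2 (3.43, with 1.00 on its other probe) were upregulated, and Sall1 was at least 5.89-fold higher. Gbx2, a homeobox factor, went from 3.63, 4.57 and 4.50 to -0.05, -0.22 and -0.28 (LFC -4.41 ± 0.29), Stat3 had an LFC of -1.99 and Lin28a of -1.51.

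The core factors did not rise together. Sox2 was well above background on the 2-cell arrays (-0.87, 1.31 and 1.15) and on none of the 4-cell and 8-cell arrays, at least 16.9-fold lower at the 4-cell stage, and averaged -0.27 in the morula. Pou5f1, which encodes OCT4, had an LFC of -0.78 ± 0.19 and was under the fold limit. The probes of Nanog were opposed, with an LFC of -0.87 on the main probe, not called, and 3.78 on the other. Normexp background correction and the mean of its probes gave 1.43 and 1.46, so no direction is given for Nanog. Klf17 (0.70) was not called, though without 2-cell replicate 1 it was upregulated (1.12).

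In the trophectoderm and Hippo list the shares were near those of all genes (34.3% and 30.3%), with 11 of 29 genes upregulated and 9 downregulated (median LFC -0.30, against 0.47 among its members measured on all 6 arrays), an order that turned to 8 and 9 with the detection filter of the study. Beside Tead4, Hand1 had an LFC of 7.99 ± 0.69 and was well above background on all 4-cell and 2 of the 3 2-cell arrays, with LFCs from 0.96 to 8.41 over the alternatives, and the coactivator Wwtr1, or TAZ, had 3.86. The kinase Lats2 (3.24), Amot (3.07) and Tfap2c (2.80) were upregulated. The coactivator Yap1 (-2.69), the kinase Stk3 (-4.03), Tfap2a (-3.77), Eomes (-2.67) and the adaptor Dab2 (at least 10.8-fold lower) were downregulated. On the 4-cell arrays Stk3 was well above background on 2 and Tfap2a on 1, and over the alternatives their LFCs came to -2.46 and -1.86 at the least. Cdx2 had levels of -4.0, -1.13 and -1.26 and then -3.00, -2.57 and -2.58 and was not called (LFC -0.59 ± 0.77), but without 2-cell replicate 1 it was downregulated (-1.53). Gata3 (-0.55), Krt8 (-0.57) and Krt18 (-0.61) were not called.

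Adhesion and polarity genes gave 13 upregulated and 8 downregulated of 34 (median LFC 0.91). These are 38.2% and 23.5%, near the 34.3% and 30.3% of all genes. Claudin Cldn4 (5.88), measured on all 4-cell and some 2-cell arrays, connexin Gja1 (4.19) and E-cadherin Cdh1 (1.87 ± 0.27) were upregulated. The polarity genes Pard6b (at least 10.8-fold lower) and Pard3 (-1.99) and the membrane linker Ezr (-2.09) were downregulated. The call of Ezr was lost in 4 of 19 other settings.

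Chromatin regulators were mixed. The HDAC list, relevant because the series used HDAC inhibitors, had 15 of 39 genes upregulated and 9 downregulated (median LFC 0.61), an order that turned to 7 and 11 with quantile normalization and 8 and 12 with smooth quantile normalization. The main counts are 38.5% and 23.1%, near the 34.3% and 30.3% of all genes. Hdac1 went from 6.15, 6.66 and 6.53 to 7.68, 7.59 and 7.61 (LFC 1.18 ± 0.20, limma adjusted p = 0.00184), but with quantile normalization its LFC was -0.32 and not called. Its mean level was -0.09 at the 1-cell and 6.44 at the 2-cell stage. Hdac2 (0.87) and Hdac7 (0.75) were not called, and Hdac9 was well above background on the 2-cell arrays only, at least 15.4-fold higher there. The deacetylases Sirt6 (2.72) and Sirt1 (2.48) and Ing2 (3.39) were upregulated, and Mta1 (-3.39) and Mbd2 (-2.50) of the NuRD complex were downregulated. Ing2 was well above background on 1 of the 3 2-cell arrays and Mta1 on 2 of the 3 4-cell arrays, and over the alternatives their LFCs came to 1.25 and -1.69 at the least.

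Among histone methylation enzymes 13 of 40 (32.5%) were upregulated and 4 (10.0%) downregulated, against 34.3% and 30.3% of all genes. The H3K9 methyltransferase Ehmt2 (LFC 4.71) and the arginine methyltransferases Prmt1 (3.84) and Prmt5 (3.46) led the rise. Kdm6b (-1.81), Kdm1b (-1.72, a call lost in 3 of 19 other settings) and Kdm4d (at least 3.66-fold lower) were downregulated. Kdm5b had an LFC of 1.30 with its 3 other probes from 0.04 to 2.16, and -0.15 with quantile normalization. Of 20 DNA methylation genes 6 were upregulated and 10 downregulated (median LFC -1.0). The dioxygenase genes parted, with Tet3 going from 2.50, 2.19 and 2.22 to -1.28, -1.06 and -1.23 (LFC -3.49 ± 0.18) and Tet1 from -0.38, 0.05 and -0.21 to 2.94, 2.99 and 3.07 (3.18 ± 0.19). Tet2 had 2.61 on its main probe and -1.96 to 2.93 on the others. The methyltransferase Dnmt3a was at least 7.75-fold lower, Dnmt1 was not called (0.35), and Dnmt3b was at the threshold (1.17, limma adjusted p = 0.0465), a call lost in 12 of 19 other settings. Mbd1 had an LFC of 3.31, and Zfp57 one of -3.22 with -0.07 on its other probe.

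Imprinted genes gave 7 upregulated and 13 downregulated of 28 (median LFC -1.03), with 7 of each after normexp background correction. Igf2r, the receptor that clears IGF2, went from 1.04, 1.32 and 1.25 to 5.75, 5.86 and 5.91 (LFC 4.63 ± 0.17). Impact had 3.37, a call lost in 4 of 19 other settings, and Sgce 2.60. Plagl1 had an LFC of -5.49 with -5.94 to -0.02 on its 3 other probes, Ascl2 had -4.12, and Peg10 was at least 3.07-fold lower. Of the X-inactivation centre and Y-linked genes, Xist, the RNA that coats the inactive X chromosome, was on no 2-cell array well above background (-5.46, -6.37 and -5.87) and on all 4-cell arrays (0.25, 0.26 and 0.74), at least 21.9-fold higher. Ddx3y (3.25) and Usp9y (1.63), each measured on all arrays of the 4-cell stage and some of the 2-cell stage, were upregulated and Eif2s3y (0.07) was not called. Usp9y lost its call in 4 of 16 other settings.

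Genes of the messenger RNA decay machinery were called down more often than up, with 18 and 13 of 44 (median LFC -0.47). These are 40.9% and 29.5%, against 30.3% and 34.3% of all genes. The median difference of same-numbered arrays was -1.24 for replicate 1, -0.30 for replicate 2 and -0.06 for replicate 3. Btg4, the adaptor that brings the CCR4-NOT deadenylase to maternal messages, went from 6.57, 4.94 and 5.32 to 1.53, 1.72 and 1.94 (LFC -3.88 ± 0.43, limma adjusted p = 0.000298). The deadenylase Cnot6l had -3.84 and the decapping enzyme Dcp2 -3.50. Cpeb2 (3.03) and Igf2bp1 (2.84) were upregulated, and Edc3 was at least 6.05-fold higher.

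In the G1/S and replication list 22 of 45 genes were upregulated and 7 downregulated (median LFC 1.11). Gins1 (4.69) of the replicative helicase, the polymerase Pold1 (3.92) and E2f6 (3.42) were upregulated, while Rb1 (-3.97), Rbl1 (-2.52) and the CDK inhibitor Cdkn2c (-3.94) were downregulated. Ccna2 (0.03) and Ccne1 (0.68) were not called. Myc went from -2.48, -0.81 and -0.98 to 2.56, 2.48 and 2.75 (LFC 4.02 ± 0.46). In the G2/M list 20 of 43 genes were upregulated and 7 downregulated, an order that turned to 10 and 12 with quantile normalization. Cdc25a (3.15), Kif11 (3.1) and Aurka (2.72) were upregulated, and Plk4 (-3.20) was downregulated. Nuf2 (-2.51, other probe 1.99) and Cdkn1a (1.73, other probe -1.40) had opposed probes.

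Markers of other cells that a pool could carry were checked. Of 20 cumulus and granulosa markers 6 passed the filter, and of 18 sperm and 13 blood markers 9 and 5. The defining cumulus markers Has2, Ptx3, Tnfaip6 and Fshr, the sperm markers Tnp1, Tnp2 and Akap4 and the blood markers Ptprc, Hbb-bs and Alas2 did not pass. The summed signal of the cumulus markers relative to the scaling percentile ranged from 874 to 1263 on the 2-cell and from 1702 to 2133 on the 4-cell arrays, while the median level of these 6 markers was -0.43 to -0.13 and -1.40 to -1.11. None of the 6 was upregulated. The summed signal of the sperm markers ranged from 23.4 to 28.0 and from 9.81 to 11.7, and that of the blood markers from 21.5 to 36.1 and from 24.1 to 24.8. In unfertilized oocytes the sperm marker sum was 36.2 to 39.8 at GV and 13.2 to 14.6 at MII. Prm2 averaged 3.36 and 2.53 there and 1.85 in 2-cell embryos, and Acrv1 and Hspa1l were well above background on all GV arrays. Signal of these markers was thus present without insemination. Cyp19a1 and Vcan (LFC -1.28) and the sperm markers Prm2 (-2.91), Oaz3, Hspa1l and Acrv1 were downregulated, and Gsg1, Cd3e (1.29) and Cd68 (1.18, a call lost in 7 of 19 other settings) were upregulated. Their part in the other results was not tested. As these are pools of whole embryos, fewer cells with a transcript and less of it per cell cannot be told apart.

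The same step was measured on 6 arrays of embryos that had been in T247, a selective HDAC3 inhibitor, at 10 µM for 6 h as zygotes. These arrays were of the same ages, 24 h and 48 h, and shared no array with the untreated comparison, but they lay on other slides, so slide and treatment cannot be told apart. The T247 step was fitted in the same limma model as the untreated step, over 12 arrays. The variance behind its calls thus also draws on the untreated arrays. Of the 5021 upregulated genes 4130 (82.3%) were upregulated with T247 too, out of 5256 (32.7% of 16051 genes tested), and 46 were downregulated. Of the 4433 downregulated genes 3858 (87.0%) were downregulated with T247, out of 5359 (33.4%), and 16 were upregulated. The median LFC of the upregulated genes was 2.35 untreated and 2.25 with T247, and that of the downregulated genes -2.54 and -2.51. Over 14644 genes, which are not independent replicates, the LFCs correlated at 0.905.

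The difference of the steps (T247 change minus untreated change, limma interaction over 12 arrays, same limits) was called for 2897 of 16051 genes (18%), 1350 (8.41%) with a higher and 1547 (9.64%) with a lower change with T247. Without 2-cell control replicate 1 the counts were 2661 and 3081. Foxa1 was at 0.26, -0.18 and -0.09 on the 2-cell T247 arrays and 5.09, 4.64 and 5.32 on the 4-cell T247 arrays, a change of 5.02 that was smaller by 3.37 ± 0.33 (limma adjusted p = 0.000152). Cish changed by 2.24 with T247, smaller by 4.77 ± 0.42 (limma adjusted p = 9.61e-05), and Tead4 by 5.73, smaller by 1.79 ± 0.28 (limma adjusted p = 0.00169). Xist was at -2.60, -2.57 and -1.95 on the 4-cell T247 arrays, below all untreated 4-cell arrays, and no size of the difference is given, since its probe was above background on no untreated 2-cell array. Pou5f1 had an LFC of -0.78 untreated and fell by 2.27 on the log2 scale with T247. Bmp15 was not among the calls.

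**Figure D5:**
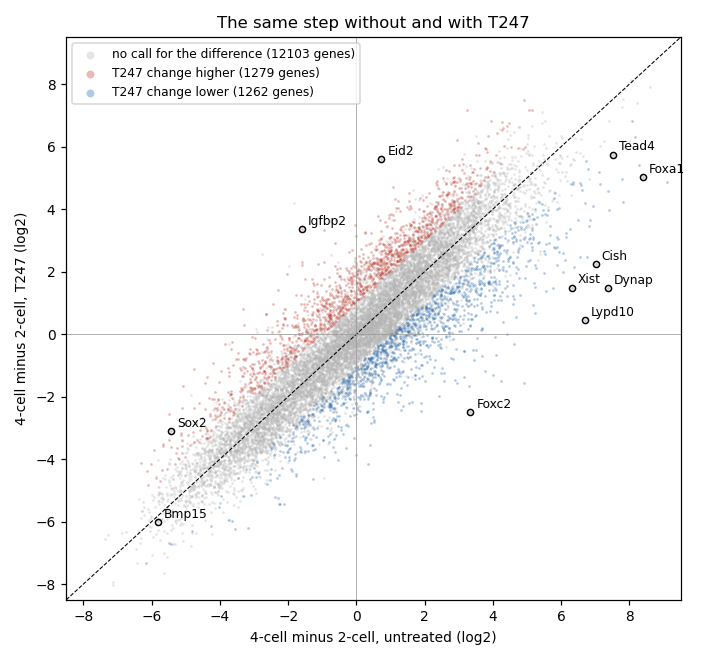
LFC of the step in untreated embryos (x axis) and after T247 (y axis) for the 14644 genes tested in both, with equal changes on the dashed line and genes in red or blue where the difference was called. Most genes lie along the line, whereas Foxa1, Cish, Dynap, Lypd10 and Xist lie below it and Eid2 and Igfbp2 above it. Genes not above background in a group, such as Xist, Dynap and Lypd10, are drawn at their fitted values.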

How the data were processed

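The authors hybridized Cy3-labelled amplified RNA to 1-colour Agilent mouse arrays and deposited scanner files made with Feature Extraction. The deposited intensity (gProcessedSignal) is background-corrected by that software. The deposited series matrix holds the authors' normalized log2 values and was used only as an alternative. Intensity was taken to log2 and each array's 75th percentile subtracted. A probe was kept if well above background on all 3 arrays of at least 1 stage, and the brightest probe stood for its gene. Probe names came from accessions (27315 probes), symbols (3526) and synonyms (552), and 24288 of 55681 probes stayed unnamed. No spot was saturated, and the number of arrays limits precision. Stages were compared with limma 3.58.1 in R 4.3.3. On simulated data the fit recovered 40%, 66%, 84% and 86% of log2 changes of 1.5, 2, 3 and 4, with 11 false calls. The simulated noise was equal in both stages and independent between arrays, so it held no array apart like 2-cell replicate 1. Named genes were the 12 largest DEGs each way among genes measured at both stages, the 8 largest bounds each way, the 3 leading DEGs each way of each list, anchor genes, and the 5 largest T247 differences each way. The first of these choices also required that the stages did not overlap. List members that were not called or went against their list were named after their values were seen. Some genes that met the rule are not reported here. Members and lists were chosen with earlier results of these data known. Alternatives covered scaling, background, filter, probes, pooled fits, weights, the replicate block and left-out arrays. Same-numbered untreated arrays shared a slide, and the main fit did not take this pairing into account. Deviations of same-numbered arrays from their stage means correlated at 0.0491, 0.0875 and -0.00522. With 3 arrays per stage these values cannot decide whether the numbers pair the samples.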

Additional observations from a re-analysis of the deposited data

Results flagged for a closer look

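The change from the 2-cell to the 4-cell stage differed between untreated and T247 embryos, by the limma interaction over 12 arrays, for 1350 genes with a larger rise or smaller fall with T247 and 1547 with a smaller rise or larger fall. Values are the T247 change minus the untreated change on the log2 scale. Treatment and slide cannot be told apart here. Without 2-cell control replicate 1 the counts were 2661 and 3081, and without any other single array they were 962 to 1235 and 1126 to 1551.

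Among the genes that led the untreated rise the difference was -3.37 for Foxa1, -2.82 for Bhmt, -1.79 for Tead4, -4.77 for Cish, -1.20 for Mogs, -1.80 for Nt5c, -1.72 for Znrd2 and -1.48 for Mrpl33. Where no array of a group was well above background, the value below is the fitted one, rests on signal that was not measured there, and gives no size. This holds for the untreated 2-cell arrays of the genes measured at the 4-cell stage only, for which the fitted difference was -1.86 for Sycn, -4.24 for Vnn1, -2.87 for Cdk18, -3.43 for Phlda3, -5.89 for Dynap and -4.83 for Xist. Tcl1b5, which fell in untreated embryos, had -1.14.

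Lineage and junction genes with a called difference were Sox2 at 2.32, Pou5f1 at -1.49, Tfap2c at -1.30, Gata3 at -1.49, Krt8 at -1.64 and Cdh1 at -2.23. Chromatin and cell cycle genes were Hdac7 at -1.76, Dnmt3b at -1.97, Kdm5b at 2.13, Cdkn1a at -2.57 and Myc at -1.76. The 5 most positive differences were 5.70 for Ephb1, 4.95 for Igfbp2, 4.87 for Eid2, 4.69 for Zswim2 and 4.37 for Gm15056. Large negative differences beside that of Dynap were -6.24 for Lypd10, -5.89 for Krt19 and -5.84 for Foxc2. Ephb1, Zswim2 and Krt19 did not pass the detection filter of the untreated comparison. The values of Sox2, Ephb1, Zswim2, Lypd10 and Krt19 also rest on at least 1 group with no array well above background, and that of Foxc2 on a group with 1 such array.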

How the results depend on the processing

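Of 3421 values of named genes under alternatives, 3322 kept their side of the threshold and, where called, their direction, 73 lost the call, 22 gained one and 4 reversed, with a call in the main or the other setting. Uncalled LFCs near 0 also changed sign, as for Klf17 (0.70, lowest -0.56) and Ccne1 (0.68, lowest -0.80). Hdac1 and Kdm5b reversed with quantile normalization (-0.32 and -0.15), and Nanog with normexp background correction (1.43) and the mean of probes (1.46). The cause was not tested. The counts of DEGs moved by over 1.5 times with probes above background on all 6 arrays (2758 downregulated, fewer genes being tested) and with the log2 values of the series matrix (2950 upregulated of 10828 genes). Leaving out each array in turn gave 4675 to 5228 upregulated and 4180 to 4469 downregulated genes, and for the T247 difference 962 to 2661 and 1126 to 3081, the highest both without 2-cell control replicate 1. The replicate block, where the number is also the slide, gave 5015 and 4433, and it changed no call of a named gene. Low signal limits genes seen at 1 stage to a bound of the fold, which is that of the main setting. Over the alternatives LFCs came to 2.41 for Xist, -2.34 for Sox2, -2.03 for Hdac9 and -1.37 for Dnmt3a at the least.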

Other observations

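Probes without a gene name were left out of the counts by gene. Of 24288 such probes 8184 passed the detection filter, and 2697 were upregulated and 2050 downregulated, with a median LFC of 0.234. Of these, 16181 were designed to long intergenic non-coding RNA regions, of which 4749 passed, 1196 upregulated and 1305 downregulated, with a median LFC of 0.04.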
